A study of Mus musculus with 72 samples.

Results

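Soleus muscle of mice with a muscle-specific knockout of Bmal1 was compared with soleus of control littermates at a single time of day, Zeitgeber time 4 (ZT4), which is 4 h after lights on. The comparison rests on 6 of the 72 arrays of the series, picked by the muscle and time in their titles, and on all 20239 genes named on the array, each measured by a single probe set. The groups were 3 knockout animals (mKO, replicates A to C) and 3 control animals (Ctrl, replicates A to C), each with its own animal number, so that the replicates are animals. The mKO mice carried a floxed Bmal1 gene and a Cre recombinase transgene driven by the Mlc1f promoter, and the Ctrl mice were littermates without Cre. All were males on the C57BL/6 background, 5 months old, kept in 12 h of light and 12 h of darkness with free access to chow. The Ctrl animals had no Cre, so an effect of Cre and an effect of Bmal1 loss cannot be told apart in this design. The same animals gave a tibialis anterior (TA), a fast muscle, and 30 further soleus (SOL) arrays came from other animals at ZT0, ZT8, ZT12, ZT16 and ZT20, with 3 mKO and 3 Ctrl animals at each time.

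BMAL1, encoded by Arntl, pairs with CLOCK or NPAS2 and activates genes with E-box elements, among them the Per, Cry and Nr1d genes. The PER and CRY proteins then inhibit the BMAL1 pair, and the REV-ERB proteins made from Nr1d1 and Nr1d2 repress Arntl itself, which closes a daily loop. In skeletal muscle this clock is known for its links to glucose use, contraction and fibre metabolism, and the soleus is a postural muscle rich in slow fibres.

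The values are log2 signals of whole-transcript arrays, so a difference of 1 is a change by 2-fold. Differences are given as mKO minus Ctrl with the standard error (SE) of a limma fit that estimates the spread over all 36 SOL arrays, and a gene is said to rise or fall where its p-value was under 0.05 after Benjamini-Hochberg adjustment across the 20239 genes. By this rule 36 genes rose (0.178%) and 53 fell (0.262%) in mKO soleus, 89 in all (0.44%). An unadjusted p under 0.05 was reached by 1225 genes (6.05%). Only 3 genes rose and 3 fell by more than 2-fold, and the median size over the 89 genes was 0.59, against a median SE of 0.11 over all genes. The 6 arrays had medians between 6.72 and 6.78 and correlated with each other across genes at 0.992 to 0.996.

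The soleus markers Myh7, Tnnt1, Tnni1 and Myl2, which encode slow sarcomere proteins, were high on all 6 arrays. Myh7, the slow myosin heavy chain, read 13.1 to 13.3 log2 units in SOL and 6.87 to 8.10 in TA of the same animals. Before the results, 3 features of some of the Ctrl arrays have to be named. The liver transcripts Alb and Serpina1a were high on Ctrl B and C. Alb, which encodes serum albumin, read 5.69, 5.66 and 5.90 in mKO and 6.67, 8.92 and 10.98 in Ctrl. The summed linear signal of the 8 liver markers was 1658, 1423 and 3870 on Ctrl A, B and C. By that sum Ctrl B was the lowest Ctrl array. In TA of the same animals Alb read 6.18, 8.28 and 5.69 in mKO and 6.01, 7.57 and 11.29 in Ctrl. The liver sum there was 664, 872 and 4562 on Ctrl A, B and C, so the signal of Ctrl C was high in both muscles. On the other 30 SOL arrays Alb ran from 5.44 to 9.98, with a median of 5.82. Adipocyte transcripts were highest on Ctrl A, where Adipoq, the fat hormone adiponectin, read 8.16, against 6.59, 6.65 and 7.47 in mKO and 6.51 and 7.06 on the other Ctrl arrays. Myh4, the fast IIB myosin heavy chain, read 12.46, 11.75 and 11.96 in mKO and 9.69, 12.19 and 8.83 in Ctrl, so Ctrl A and C were low. The part of these features in any other difference was not tested beyond the counts obtained without the arrays. Without Ctrl B and C, which leaves 1 Ctrl animal, 3 genes rose and 10 fell, and without Ctrl A and C 3 rose and 8 fell. Of the 13 and 11 genes so called, 10 in each case were among the 89. Leaving out single arrays gave 12 to 34 genes that rose and 19 to 47 that fell, with the lowest count of rises without Ctrl C and the lowest count of falls without mKO C.

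**Figure D1:**
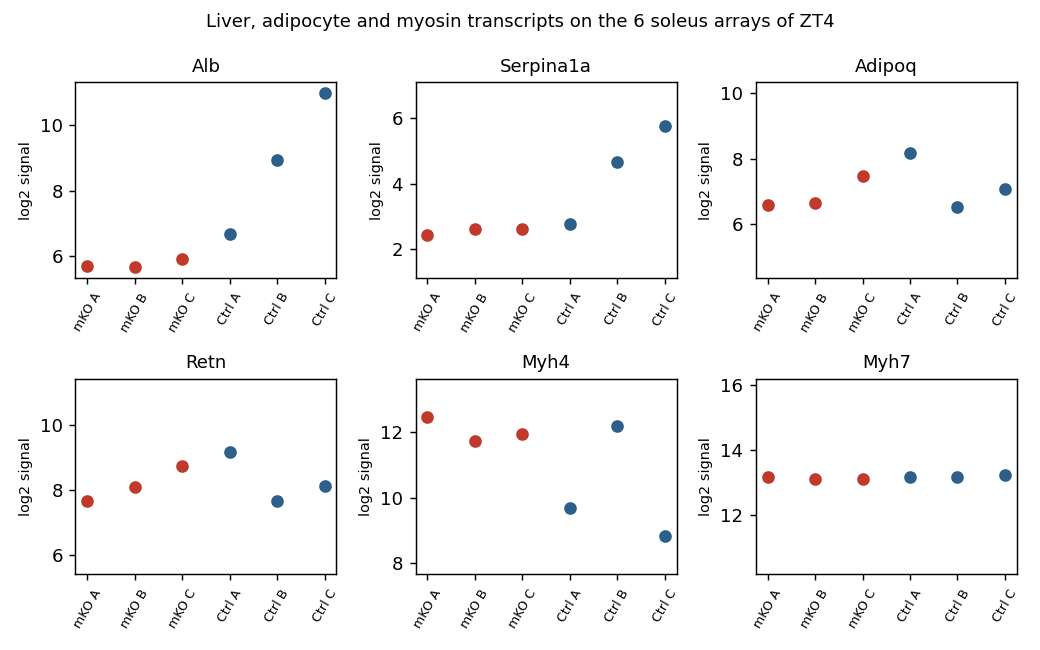
Log2 signal of 2 liver transcripts (Alb, Serpina1a), 2 adipocyte transcripts (Adipoq, Retn) and 2 myosin heavy chains (Myh4, Myh7) on each of the 6 soleus arrays of ZT4, mKO in red and Ctrl in blue, 1 point an array. Alb reaches 8.92 and 10.98 on Ctrl B and C, Adipoq is highest on Ctrl A at 8.16, Myh4 is lowest on Ctrl A and C, and Myh7 lies within 13.1 to 13.3 throughout.

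Among 34 measured clock genes, 18 of a core list and 16 of an output list, 3 fell and none rose by limma, where 0.262% of all genes fell and 0.178% rose. Those that fell were Nr1d2 and Per3 of the core list and Coq10b of the output list. At an unadjusted p under 0.05, 4 of 18 core and 2 of 16 output genes were higher (2.96% of all genes were) and 8 and 6 were lower (3.09% of all genes were). The 3 mKO arrays lay entirely below the 3 Ctrl arrays for 14 clock genes, the 3 called ones among them, and entirely above for 6, where 6.47% and 6.41% of all genes did so, and the groups overlapped for the other 14. Nr1d2, which encodes the repressor REV-ERB beta, read 9.76, 9.76 and 9.80 in mKO and 10.55, 10.54 and 10.51 in Ctrl. The groups stood far apart with almost no spread inside either. Its difference was -0.76 ± 0.11 (SE, adjusted p 0.000342), and it was called in each fit without 1 array, though not without Ctrl B and C (adjusted p 0.0679) or without Ctrl A and C (adjusted p 0.0813). Per3, a period gene of the inhibitory arm, read 7.03, 6.99 and 7.10 in mKO and 7.68, 7.62 and 7.62 in Ctrl. The groups did not overlap, but the call was near its limit (-0.60 ± 0.14 SE, adjusted p 0.0466) and was lost in all 6 fits without 1 array. Coq10b, which encodes a binding protein of coenzyme Q, read 8.02, 7.61 and 7.96 in mKO and 8.35, 8.45 and 8.47 in Ctrl (-0.56 ± 0.12 SE, adjusted p 0.0273). Array mKO B was the lowest, and the call was lost without it and without mKO C, Ctrl B or Ctrl C.

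The promoters of these 3 called genes of the clock lists are shown with that of Mfsd4a, a transporter gene that rose, because the clock acts on promoter elements. Each is the RefSeq window of assembly GRCm38.p6 from 250 bases before to 50 after the annotated start, on the strand of the gene. Capitals mark the E-box CACGTG, the D-box TTANGTAA, which is the element bound by DBP, HLF, TEF and NFIL3, and a variant of the E-box, CACGTT, read on either strand. Nr1d2 lies on the minus strand at chr14:18239057-18239356, Per3 on the minus strand at chr4:151044616-151044915, Coq10b on the plus strand at chr1:55052520-55052819 and Mfsd4a on the minus strand at chr1:132068013-132068312.
Nr1d2: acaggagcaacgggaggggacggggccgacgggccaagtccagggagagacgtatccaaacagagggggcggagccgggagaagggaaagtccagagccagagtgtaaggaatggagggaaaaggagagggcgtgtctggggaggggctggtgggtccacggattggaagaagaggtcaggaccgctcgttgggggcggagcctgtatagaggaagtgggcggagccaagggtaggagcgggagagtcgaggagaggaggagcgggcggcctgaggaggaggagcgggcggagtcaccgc
Per3: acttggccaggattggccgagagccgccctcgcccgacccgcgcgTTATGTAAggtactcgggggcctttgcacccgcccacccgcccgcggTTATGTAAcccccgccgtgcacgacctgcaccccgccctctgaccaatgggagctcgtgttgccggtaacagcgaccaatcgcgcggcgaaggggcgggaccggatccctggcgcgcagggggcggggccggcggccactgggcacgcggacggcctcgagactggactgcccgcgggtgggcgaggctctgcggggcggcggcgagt
Coq10b: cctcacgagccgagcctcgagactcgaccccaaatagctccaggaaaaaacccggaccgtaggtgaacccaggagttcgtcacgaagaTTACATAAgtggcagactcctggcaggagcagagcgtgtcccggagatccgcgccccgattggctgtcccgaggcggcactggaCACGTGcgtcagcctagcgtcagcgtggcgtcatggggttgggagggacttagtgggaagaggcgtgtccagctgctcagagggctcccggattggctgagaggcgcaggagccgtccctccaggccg
Mfsd4a: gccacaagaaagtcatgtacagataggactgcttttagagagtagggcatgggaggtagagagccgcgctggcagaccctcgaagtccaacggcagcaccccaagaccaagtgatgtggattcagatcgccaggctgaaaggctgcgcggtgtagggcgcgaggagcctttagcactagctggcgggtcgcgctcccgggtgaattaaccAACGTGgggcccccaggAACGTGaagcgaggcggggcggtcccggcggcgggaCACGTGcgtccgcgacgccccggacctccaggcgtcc

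The Per3 window held 2 D-boxes that begin 205 and 158 bases before the start and overlap no other motif. Coq10b had an E-box 78 bases and a D-box 162 bases before the start, and Mfsd4a an E-box 13 bases after it and 2 variant E-boxes 40 and 23 bases before it. None of the searched letters was in the window of Nr1d2, which says nothing of regions outside it. Both strands were searched in the windows of 15450 named genes, 72 of the 89 called genes among them. The E-box was in 8.2% of all windows, in 3 of 41 windows of genes that rose (7.32%) and in 4 of 58 windows of genes that fell (6.9%). The D-box was in 2% of all windows, in none of those of genes that rose and in 6.9% of those of genes that fell. The last 4 belonged to Coq10b, Map2k6, Per3 and Txndc16, of which Map2k6 and Txndc16 are named here after their values were seen. The element of REV-ERB and ROR proteins, TAGGTCA, was in 2.21% of all windows, in none of those of genes that rose and in 5.17% of those of genes that fell. The variant E-box was in 4.72% of all windows, in 7.32% of those of genes that rose and in 1.72% of those of genes that fell. Among the genes that rose, Mfsd4a alone held both the E-box and its variant, so its printed window is not typical of them. A match of letters is a description and not a binding site.

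The activators of the loop did not pass the test at ZT4. Arntl read 8.34, 8.44 and 8.21 in mKO and 8.77, 8.76 and 8.96 in Ctrl, a difference of -0.51 ± 0.15 (SE, adjusted p 0.201). The mKO arrays were all lower, yet even in mKO muscle the signal lay above the array medians of 6.72 to 6.78. The sources used here do not give where its probes lie relative to the floxed part of the gene, so Arntl does not check the deletion, and the other cells of the tissue keep the gene. Clock read 9.85, 9.90 and 9.86 in mKO and 9.69, 9.59 and 9.74 in Ctrl (0.20 ± 0.07 SE, adjusted p 0.564). Npas2, whose protein can replace CLOCK, read 8.83, 8.89 and 8.74 in mKO and 8.58, 8.34 and 8.48 in Ctrl (0.36 ± 0.15 SE, adjusted p 0.687). Both had all mKO arrays above all Ctrl arrays without a call.

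The inhibitors of the loop differed in sign, most of them without a call. Cry1 read 7.65, 7.56 and 7.45 in mKO and 7.11, 7.20 and 7.19 in Ctrl, with the groups apart (0.39 ± 0.10 SE, adjusted p 0.112), and Cry2 differed by 0.33 (adjusted p 0.635). Per1 and Per2 had overlapping groups, with differences of -0.32 and 0.03. Nr1d1, which encodes REV-ERB alpha, read 11.01, 10.99 and 10.84 in mKO and 11.62, 11.48 and 11.66 in Ctrl. Its difference of -0.64 was close in size to that of Nr1d2, but its SE of 0.23 over the whole day left it uncalled (adjusted p 0.480), and with the spread taken from the 6 ZT4 arrays alone it was called (adjusted p 0.0393). Bhlhe41, a repressor of E-box genes, differed by -0.56 (adjusted p 0.552), and its relative Bhlhe40 by -0.47 with overlapping groups.

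The PAR bZIP factors, which carry the clock to D-box genes, were lower in mKO without a call. Dbp read 8.25, 8.32 and 8.31 in mKO and 8.95, 8.73 and 8.74 in Ctrl (-0.51 ± 0.19 SE, adjusted p 0.503). Hlf differed by -0.36 and Tef by -0.25, each with all mKO arrays below all Ctrl arrays. Nfil3, the repressor that competes with them, read 7.80, 7.94 and 8.10 in mKO and 7.44, 7.28 and 7.37 in Ctrl (0.59 ± 0.18 SE, adjusted p 0.278), so all mKO arrays were higher. Among other outputs, Wee1, a kinase that holds back mitosis, differed by -0.38 and Nampt, an enzyme of NAD synthesis, by -0.28, with the groups apart in both. Over the 18 core genes the median difference was -0.18 and over the 16 output genes -0.09, beside 0.01 over all genes.

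**Figure D2:**
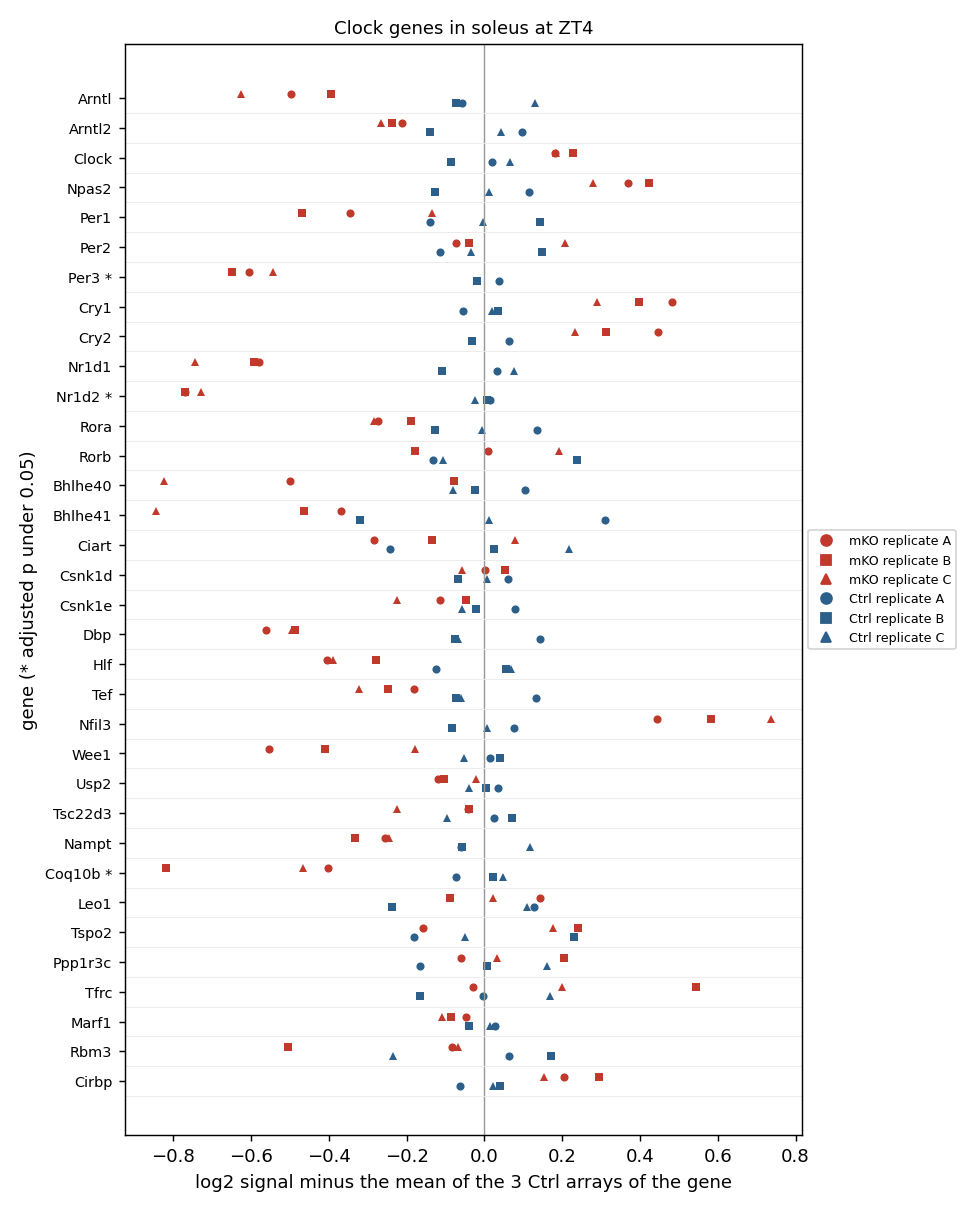
Log2 signal of 34 clock genes in soleus at ZT4 on each mKO array (red) and each Ctrl array (blue), minus the mean of the 3 Ctrl arrays of the same gene, with the shape of a point giving the replicate letter and an asterisk an adjusted p under 0.05. Nr1d2 and Per3 have tight groups far apart, 14 genes have all mKO arrays below all Ctrl arrays, and 6 have them above.

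The rise with the largest size was that of Cdkn1a (chromosome 17, Entrez gene 12575), which encodes p21, an inhibitor of cyclin-dependent kinases. It read 11.25, 11.40 and 11.44 in mKO and 9.37, 9.39 and 9.41 in Ctrl, so the gap was many times the spread inside either group. The difference was 1.98 ± 0.19 (SE, adjusted p 4.19e-07), which is 3.93-fold. Of 23 measured genes of the p53 and cell cycle list, Cdkn1a alone passed the test (0.44% of all genes did). The list had a median difference of -0.04. At an unadjusted p under 0.05, 2 of its 23 genes were higher and 4 lower, where 2.96% and 3.09% of all genes were. Cdkn1a was called in all 19 alternative settings, with differences from 1.94 to 2.03.

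Genes of calcium handling and excitation gave 2 rises and 1 fall among 25 measured, where 0.178% of all genes rose and 0.262% fell. Mrln (chromosome 10, Entrez gene 69563), which encodes myoregulin, a small membrane protein that inhibits the calcium pump of the sarcoplasmic reticulum, rose. It read 9.93, 9.94 and 9.96 in mKO and 8.65, 8.92 and 8.89 in Ctrl (1.13 ± 0.13 SE, adjusted p 4.16e-06), with the mKO animals nearly alike. Mylk4 (chromosome 13, Entrez gene 238564), a kinase of the myosin light chain kinase family, fell by the largest size of any called gene. It read 7.71, 7.80 and 7.62 in mKO and 10.10, 10.39 and 10.05 in Ctrl (-2.47 ± 0.27 SE, 5.54-fold lower, adjusted p 3.24e-06). Both genes, like Cdkn1a, were called in every setting tried. Camk2b, a calcium and calmodulin-dependent kinase, rose by less, at 11.06, 11.06 and 11.05 in mKO and 10.78, 10.68 and 10.66 in Ctrl (0.35 ± 0.07 SE, adjusted p 0.0192), and was called in only 1 of 6 fits without 1 array, the one without Ctrl A. The other 22 were not called. At an unadjusted p under 0.05, 6 of the 25 were higher and 2 lower, where 2.96% and 3.09% of all genes were. Casq2, the calcium store protein of slow and cardiac fibres, read 11.12, 11.15 and 11.12 in mKO and 10.90, 10.43 and 10.48 in Ctrl (0.52 ± 0.12 SE, adjusted p 0.0365). Ctrl A was the highest of its group, the call was kept in the fit without it and in none of the other 5, and without Ctrl B and C the difference was 0.23 (adjusted p 0.781).

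Few genes of contraction and fibre type passed the test, and some uncalled ones differed by a lot. Casq2 was the single call of 16 slow fibre genes (median difference 0.02) and none of 17 fast fibre genes passed by limma (median -0.01). At an unadjusted p under 0.05 there were 3 higher and 1 lower slow fibre genes, and 1 higher and 2 lower fast fibre genes. Of all genes, 2.96% were higher and 3.09% lower at that p, and 0.44% were called after adjustment. The largest difference of the slow list was that of Pln, which encodes phospholamban, an inhibitor of the calcium pump of slow fibres, at 9.60, 9.45 and 9.79 in mKO and 8.56, 8.20 and 8.33 in Ctrl. All mKO arrays were above all Ctrl arrays, but with an SE from the whole day the difference of 1.25 ± 0.40 was not called (adjusted p 0.333). The largest of the fast list was that of Myh4, whose arrays are given above, at 1.82 ± 1.04 (SE, adjusted p 0.928) with overlapping groups. Both are named here after their values were seen. Mylpf, a fast myosin light chain, had the smallest p among the fast genes, at 11.24, 11.28 and 11.05 in mKO and 10.91, 10.69 and 10.58 in Ctrl (0.46 ± 0.12 SE, adjusted p 0.0945). Tcap, which encodes the titin cap protein of the Z-disc, fell, with 11.04, 11.02 and 10.75 in mKO and 11.76, 11.44 and 11.40 in Ctrl (-0.60 ± 0.10 SE, adjusted p 0.00209). The Tcap call was kept in every fit without 1 array. It was lost with the spread from the 6 ZT4 arrays alone (adjusted p 0.143) and from all 72 arrays (adjusted p 0.0629). Tead4, a transcription factor of muscle genes, read 8.75, 8.92 and 8.78 in mKO and 8.33, 8.28 and 8.27 in Ctrl. It rose by 0.52 ± 0.12 (SE, adjusted p 0.0409), a call lost in all 6 fits without 1 array. These were the 2 calls among 28 myogenic and fibre type factors, of which 2 were higher and 5 lower at an unadjusted p under 0.05. At the synapse, Chrnb1, a subunit of the acetylcholine receptor, rose, at 8.64, 8.85 and 8.58 in mKO and 8.26, 7.99 and 8.05 in Ctrl (0.59 ± 0.14 SE, adjusted p 0.046). It was 1 of 20 measured synapse and denervation genes to pass and held its call only in the fit without Ctrl A. Of these 20, 3 were higher and 2 lower at an unadjusted p under 0.05.

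**Figure D3:**
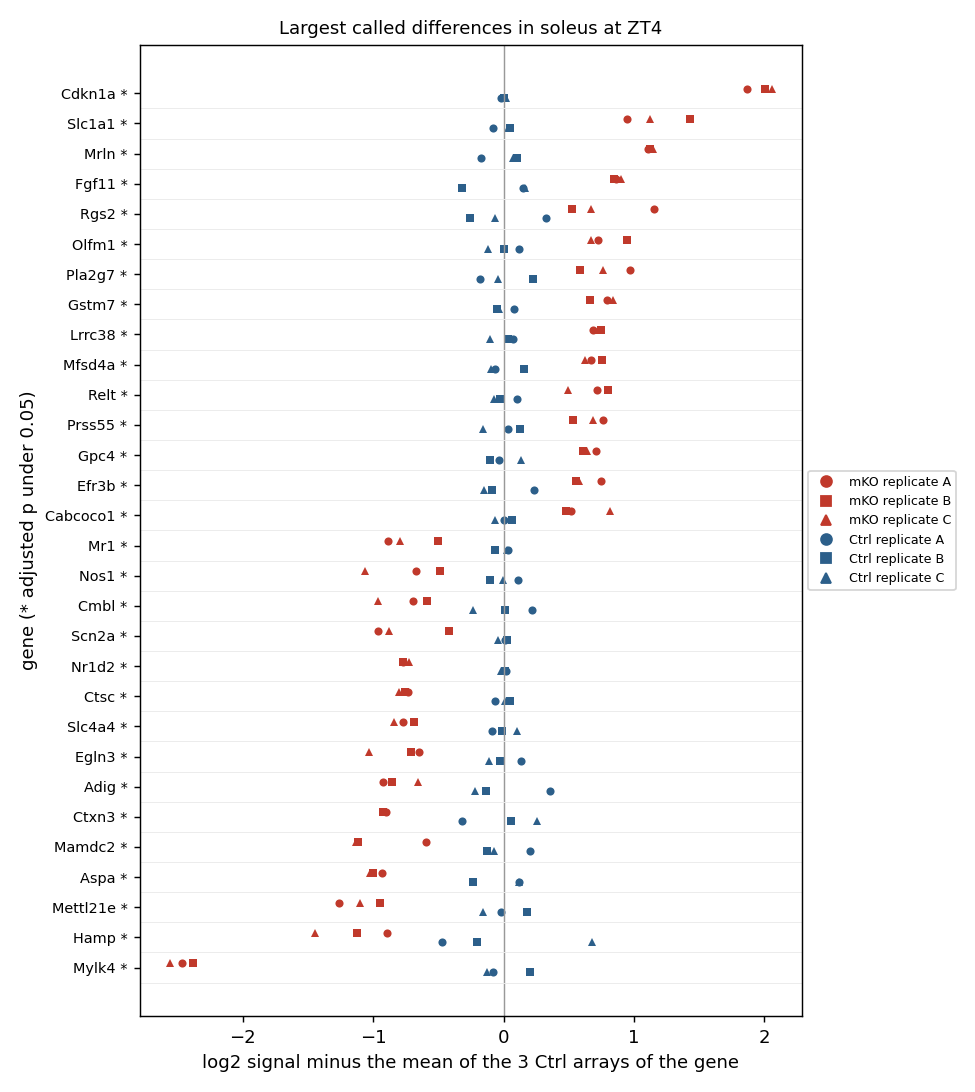
Log2 signal of the 15 genes with the largest rises and the 15 with the largest falls in soleus at ZT4, on each mKO array (red) and each Ctrl array (blue), minus the mean of the 3 Ctrl arrays of the same gene, with the shape of a point giving the replicate letter. In all 30 the mKO and Ctrl points do not overlap, and Cdkn1a (1.98) and Mylk4 (-2.47) lie farthest out.

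Metabolic lists gave 4 calls, all of them falls, where 0.262% of all genes fell and 0.178% rose. Of 23 genes of glucose uptake and glycogen, Tbc1d1 fell. Its protein restrains the movement of the glucose transporter GLUT4 to the surface, and it read 7.51, 7.71 and 7.40 in mKO and 8.14, 7.98 and 8.27 in Ctrl (-0.59 ± 0.10 SE, adjusted p 0.00313). The call was lost without mKO C or without Ctrl C. Of 26 genes of lipid synthesis and storage, Dgat2 fell, the enzyme of the last step of triglyceride synthesis, at 10.203, 10.337 and 10.002 in mKO and 10.694, 11.093 and 10.840 in Ctrl (-0.70 ± 0.13 SE, adjusted p 0.0037). It was not called without mKO C or without Ctrl B. Amino acid metabolism gave 2 falls among 23 genes. Gpt2, the mitochondrial alanine aminotransferase, read 8.22, 7.92 and 7.88 in mKO and 8.66, 8.90 and 8.64 in Ctrl (-0.73 ± 0.15 SE, adjusted p 0.0127), and lost its call without mKO B, mKO C or Ctrl B. Glul, glutamine synthetase, read 9.55, 9.41 and 9.26 in mKO and 9.86, 9.86 and 9.996 in Ctrl (-0.50 ± 0.11 SE, adjusted p 0.034). It was called in 1 of the 6 fits without 1 array, the one without mKO A.

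No gene was called by limma among 17 of glycolysis and lactate, 12 of pyruvate dehydrogenase and its regulators, 26 of fatty acid uptake and oxidation, 27 of the citrate cycle and respiratory chain, 24 of insulin signalling and 9 of cholesterol synthesis. At an unadjusted p under 0.05, 3.09% of all genes were lower and 2.96% higher. At that threshold these lists held, in the same order, 3, 1, 3, 0, 3 and 0 lower genes and 0, 0, 0, 3, 2 and 0 higher ones. The nearest to a call was Pfkfb3, which makes the main activator of phosphofructokinase, at 7.09, 7.30 and 6.92 in mKO and 7.81, 7.90 and 7.37 in Ctrl (-0.59 ± 0.17 SE, adjusted p 0.176). The groups were apart, but only by a small gap at Ctrl C. Cpt1a, a carrier step of fatty acid entry into mitochondria, differed by -0.55 (adjusted p 0.261), and Igfbp3, which binds insulin-like growth factors, by 0.40 (adjusted p 0.304). In the citrate cycle and respiratory chain 23 of 27 genes were positive, but by little: the median was 0.04, beside 0.01 over all genes, and the largest was 0.19.

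Lists of stress and turnover gave few calls. Of 20 genes that respond to glucocorticoids, Cdkn1a rose and Sgk1 and Glul fell, where 0.178% of all genes rose and 0.262% fell. Sgk1, a kinase induced by these hormones, read 7.57, 7.52 and 7.67 in mKO and 8.18, 8.26 and 8.44 in Ctrl (-0.70 ± 0.13 SE, adjusted p 0.0037) and lost its call without Ctrl C. None passed by limma among 22 genes of atrophy, myostatin and autophagy, 16 heat shock genes and 20 immediate early genes. At an unadjusted p under 0.05, 3.09% of all genes were lower and 2.96% higher. These lists held, in the same order, 2, 1 and 1 lower genes and 0, 1 and 0 higher ones. Their members of smallest p were Fst, which encodes the myostatin antagonist follistatin (-0.33, adjusted p 0.232), Bag3, a co-chaperone (0.28, adjusted p 0.443), and Nr4a1, a nuclear receptor (-0.42, adjusted p 0.687).

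The other large rises were outside these lists. Slc1a1, a membrane transporter of glutamate and cysteine, read 8.52, 9.001 and 8.69 in mKO and 7.49, 7.62 and 7.61 in Ctrl, so every mKO animal was well above every Ctrl animal (1.17 ± 0.19 SE, adjusted p 0.000962). Fgf11, a member of the fibroblast growth factor family that is kept inside cells, read 7.07, 7.06 and 7.10 in mKO and 6.36, 5.89 and 6.37 in Ctrl (0.87 ± 0.15 SE, adjusted p 0.00223). Gstm7, a glutathione transferase, read 9.42, 9.29 and 9.47 in mKO and 8.71, 8.58 and 8.59 in Ctrl (0.76 ± 0.11 SE, adjusted p 0.000342). All 3 kept the call whichever single array was left out. So did Olfm1, a secreted glycoprotein (0.78, adjusted p 0.000792), Mfsd4a (0.68, adjusted p 0.000358) and Gpc4, a heparan sulphate proteoglycan of the cell surface (0.65, adjusted p 0.00151). With 1 Ctrl animal left, the difference of Fgf11 was 0.72 without Ctrl B and C, and that of Mfsd4a was 0.52 without Ctrl A and C.

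The remaining 7 of the 15 largest rises lost the call in 2 to 6 of the 6 fits without 1 array, each of which has fewer samples, while all their differences stayed positive. Rgs2, which shortens signals of G proteins, read 9.22, 8.59 and 8.74 in mKO and 8.39, 7.81 and 8.01 in Ctrl, so array A was the highest in both groups (0.78 ± 0.18 SE, adjusted p 0.037). Pla2g7, which breaks down platelet-activating factor, rose by 0.77 (adjusted p 0.0123), and both genes lost the call in 4 of 6 fits without 1 array. Lrrc38, a partner of BK potassium channels, rose by 0.72 (adjusted p 0.0103), Efr3b, a membrane anchor of a lipid kinase, by 0.63 (adjusted p 0.00545) and Cabcoco1 by 0.61 (adjusted p 0.0103). These 3 lost the call in 3, 3 and 2 of the 6 fits. Relt, a receptor of the tumour necrosis factor family (0.67, adjusted p 0.047), lost it in all 6, as did Prss55, a serine protease (0.66, adjusted p 0.0373). In the fits without 1 array the difference of Relt ran from 0.60 to 0.76, that of Prss55 from 0.58 to 0.72 and that of Rgs2, the widest of the 7, from 0.60 to 0.94.

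Among the falls, Aspa, which splits N-acetylaspartate, read 6.45, 6.38 and 6.35 in mKO and 7.497, 7.145 and 7.504 in Ctrl (-0.99 ± 0.12 SE, adjusted p 2.66e-05), with the groups far apart. Ctxn3, which encodes a small membrane protein of the cortexin family, read 7.83, 7.81 and 7.83 in mKO and 8.42, 8.79 and 8.998 in Ctrl (-0.91 ± 0.14 SE, adjusted p 0.000376), where the spread lay in the Ctrl animals. Egln3, a prolyl hydroxylase that senses oxygen, read 10.49, 10.42 and 10.10 in mKO and 11.27, 11.11 and 11.03 in Ctrl (-0.80 ± 0.13 SE, adjusted p 0.000853). Slc4a4, a sodium bicarbonate cotransporter, read 7.99, 8.07 and 7.92 in mKO and 8.67, 8.74 and 8.86 in Ctrl (-0.76 ± 0.11 SE, adjusted p 0.000288). Mr1, which presents small metabolites to T cells, fell by 0.73 (adjusted p 0.0013). All 5 kept the call in every fit without 1 array. Egln3 was not called with the spread from all 72 arrays (limma, adjusted p 0.0529). With 1 Ctrl animal left, the difference of Ctxn3 was -0.60 without Ctrl B and C, and that of Aspa was -0.75 without Ctrl A and C.

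Nos1, the neuronal nitric oxide synthase of the muscle membrane, read 7.62, 7.80 and 7.23 in mKO and 8.40, 8.19 and 8.29 in Ctrl (-0.74 ± 0.15 SE, adjusted p 0.0109) and lost the call without mKO C, Ctrl A or Ctrl C. Scn2a, a voltage-gated sodium channel, fell by 0.75 (adjusted p 0.0037), Cmbl, a hydrolase, by 0.75 (adjusted p 0.0103), Mamdc2, a matrix proteoglycan, by 0.95 (adjusted p 0.0132) and Mettl21e, a methyltransferase of muscle, by 1.10 (adjusted p 0.0114). These 4 lost the call in 2, 3, 4 and 3 of the 6 fits. Ctsc, the lysosomal protease cathepsin C (-0.76, adjusted p 0.0443), and Adig, a small protein of fat cells (-0.81, adjusted p 0.0395), lost it in all 6. Adig read 6.56, 6.63 and 6.83 in mKO and 7.84, 7.36 and 7.27 in Ctrl. It was highest on Ctrl A, the array with the highest adipocyte transcripts, and without Ctrl A its difference was -0.64 (adjusted p 0.297). Over the other 5 times its mean difference in SOL was -0.62 (limma, adjusted p 2.56e-06). In TA at ZT4 its difference was -0.48 (limma, adjusted p 0.0295). A part of fat cells in the fall of Adig was not tested.

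Hamp, which encodes the liver hormone hepcidin, read 3.74, 3.51 and 3.19 in mKO and 4.16, 4.43 and 5.31 in Ctrl (-1.15 ± 0.24 SE, adjusted p 0.0157). Its Ctrl values followed the order of Alb on the same arrays, but among the mKO arrays it was lowest on mKO C, where Alb was highest. A part of liver RNA in this fall was not tested. All 6 Hamp values lay below the array medians of 6.72 to 6.78. Without Ctrl C the difference was -0.82 (adjusted p 0.278), without mKO B and without mKO C the adjusted p was 0.0692 and 0.152, and without Ctrl B and C the difference was -0.68 (adjusted p 0.644). Of the 42 called genes named for their size or as members of a list, 16 kept the call in all 6 fits without 1 array, 20 lost it in 1 to 5 and 6 lost it in all 6. The other 17 rises ran from 0.31 to 0.57 and the other 30 falls, Map2k6 and Txndc16 among them, from -0.72 to -0.33.

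Of the 10 lists of markers of other cell types, none had a member that passed by limma. In tissue RNA fewer cells of a type and less RNA per cell cannot be told apart. All 8 liver markers were negative (median -0.76), 7 of them at an unadjusted p under 0.05, where 3.09% of all genes were lower. Their summed linear signal was 758 to 1160 in mKO and 1423 (Ctrl B) to 3870 (Ctrl C) in Ctrl. All 7 adipocyte markers were negative (median -0.29, 1 of them lower at an unadjusted p under 0.05), with a summed signal of 2868 to 3360 in mKO and 3193 to 4555 in Ctrl. Of 12 fibroblast and tendon markers 11 were negative (median -0.26), with sums of 12816 to 14087 in mKO and 14003 to 17304 in Ctrl that barely overlapped, and Scx, a tendon factor, was the exception at 0.36 (adjusted p 0.299). The part of these cell types in the differences above was not tested. Endothelial, macrophage, lymphocyte and granulocyte, erythroid, Schwann cell, smooth muscle and satellite cell markers had medians from -0.13 to 0.06, with no member at an unadjusted p under 0.05 but 1 Schwann cell marker and 2 satellite cell markers, which were lower.

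The differences were then set against soleus of other animals, at the other 5 times. By their animal numbers, the mKO and Ctrl animals of ZT20 came from different number series, whose meaning is not given. Series and genotype therefore cannot be told apart at ZT20, and at ZT12 and ZT16 the series were unevenly split between the genotypes. Of the 36 genes that rose at ZT4, 35 were higher in mKO at each of the 5 other times, where 7.25% of all genes were, and all 36 were called higher over the mean of those times (background 3.04%). Of the 53 that fell, 51 were lower at each time (background 7.40%) and 52 were called lower over the mean (background 3.03%). Cdkn1a differed by 2.02, 2.20, 2.31, 2.59 and 2.46 at ZT0, ZT8, ZT12, ZT16 and ZT20. Mrln differed by 1.18, 1.09, 1.42, 1.09 and 0.93 and Mylk4 by -2.21, -2.66, -1.79, -2.54 and -2.33 at the same times. Their ZT4 values lay within or next to these ranges. The gene without a call over the other times was Hamp, with a mean difference of 0.17 there.

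No gene differed between ZT4 and the mean of the other times by limma (adjusted p under 0.05, 0 of 20239), while 546 (2.7%) had an unadjusted p under 0.05. The smallest p belonged to Clock, whose difference was 0.20 at ZT4 and 0.48, 0.67, 0.71, 0.77 and 0.50 at the other times, from ZT0 to ZT20. The ZT4 difference minus their mean was -0.43 ± 0.08 (SE, adjusted p 0.178). Arntl differed by -0.51 at ZT4 and by -0.67, 0.40, 0.78, 0.55 and 0.01 at the other times, so that it was lower in mKO only at ZT0 and ZT4 among the 6 times (ZT4 minus the others -0.72 ± 0.16 SE, adjusted p 0.334). Npas2 differed by 0.36 at ZT4, near its 0.38 at ZT0, against 0.80 to 1.34 at the later times (-0.60 ± 0.17 SE, adjusted p 0.9999). Hamp had the second smallest p (-1.32 ± 0.26 SE, adjusted p 0.178). Without Ctrl A, Hamp and the liver gene Serpina1a were called lower at ZT4 than at the other times (adjusted p 0.041 and 0.0296), and without Ctrl B and C the single gene Ibsp was (adjusted p 0.00353), Ibsp being named here after its value was seen.

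**Figure D4:**
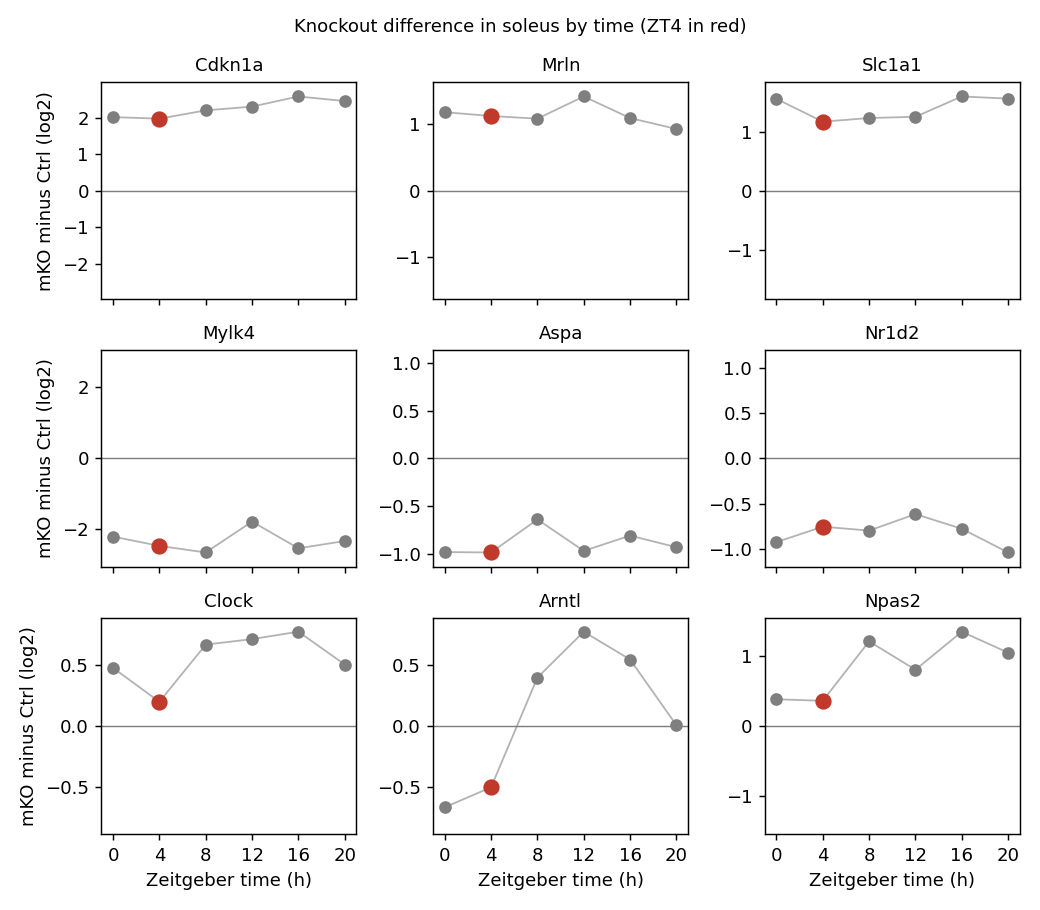
Mean log2 difference, mKO minus Ctrl (3 animals each), of 9 genes in soleus at the 6 times of day, with ZT4 in red and the grey line at 0. Cdkn1a, Mrln, Slc1a1, Mylk4, Aspa and Nr1d2 keep their sign at all 6 times, whereas Arntl is below 0 at ZT0 and ZT4, near 0 at ZT20 and above 0 at ZT8, ZT12 and ZT16.

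In the TA of the same animals at ZT4, 35 of the 36 genes that rose in SOL were higher in mKO, where 53.9% of all genes were, and 29 were called higher, where 0.642% of all genes were. Of the 53 that fell, 52 were lower, where 46.1% of all genes were, and 33 were called lower, where 1.03% of all genes were. Whether the difference itself was unlike in SOL and TA was tested within animals, and 23 genes passed (0.114%), 13 with a higher value in SOL (0.0642%) and 10 with a lower one (0.0494%). All of these but Mylk4, Cmbl and Kcng4, the last named here after its values were seen, had a larger difference in TA than in SOL. Prss55 differed by 0.66 in SOL and by 3.13 in TA, where it read 9.46, 9.49 and 9.29 in mKO and 6.43, 6.33 and 6.09 in Ctrl (SOL minus TA -2.47 ± 0.24 SE, adjusted p 1.93e-07). Car3, a carbonic anhydrase, read 13.81, 13.84 and 13.82 in mKO and 13.92, 13.82 and 13.76 in Ctrl in SOL, with overlapping groups. In TA it read 12.18, 11.95 and 12.22 in mKO and 13.81, 13.68 and 13.85 in Ctrl (SOL minus TA 1.65 ± 0.15 SE, adjusted p 1.17e-07).

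The repressor Nr1d2 fell in both muscles but by less in SOL, with -0.76 against -1.60 in TA (SOL minus TA 0.85 ± 0.13 SE, adjusted p 0.000543). Dbp (-0.51 in SOL, -1.66 in TA) and Hlf (-0.36 in SOL, -1.23 in TA) also differed between the muscles (adjusted p 0.00312 and 0.00253), as did Bhlhe40 (-0.47 in SOL, -1.77 in TA, adjusted p 0.00253). The difference of Nr1d1 was -0.64 in SOL and -1.64 in TA, a contrast without a call (adjusted p 0.0723). Mylk4 went the other way, with -2.47 in SOL and -1.16 in TA (SOL minus TA -1.31 ± 0.27 SE, adjusted p 0.0341). That call was lost in all 6 fits without 1 array, as was that of Ccdc122. Cmbl fell in SOL (-0.75) and differed by 0.32 in TA (adjusted p 0.00564 for the contrast), a call lost in 3 of the 6 fits. The number of genes with a lower value in SOL was 4 to 6 in these fits, and the number with a higher value 11 to 13. Without Ctrl B and C, 5 genes had a higher and 3 a lower value in SOL, and without Ctrl A and C 5 and 1.

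**Figure D5:**
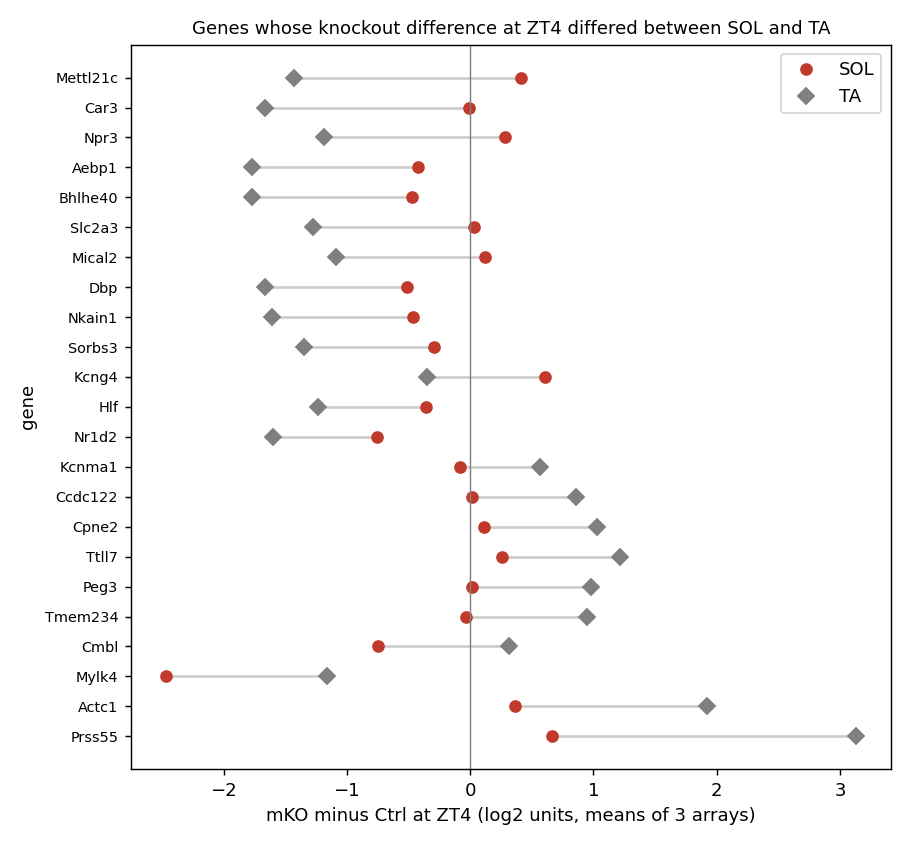
Mean log2 difference, mKO minus Ctrl (3 animals each), in soleus (red circles) and in tibialis anterior of the same animals (grey diamonds) at ZT4, for the 23 genes whose difference was called unlike in the 2 muscles. Soleus lies nearer to 0 than tibialis anterior for most of them, such as Car3 and Prss55, and farther from 0 for Mylk4, Cmbl and Kcng4.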

How the data were processed

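Transcript levels were measured on whole-transcript arrays, 1 for each muscle of each of 36 animals. The deposited table holds log2 signals of all arrays made by the authors with RMA (no version stated), per the submitters' processing notes, and it was tested unchanged. GEO's platform annotation named 20239 of the 21225 probe sets, each with a single symbol that RefSeq GRCm38.p6 also holds, and the other 986 stayed unnamed.

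Groups and replicate letters come from the sample titles. The 36 SOL arrays were fitted with lmFit and eBayes of limma 3.58.1 under R 4.3.3, first tested on simulated data, in a model of 12 group terms, which leaves 24 residual degrees of freedom. Contrasts were mKO minus Ctrl at ZT4, and that difference minus the mean of the other 5 times. SOL was set against TA on differences within animals. Adjusted p-values are Benjamini-Hochberg values across all genes tested. The number of arrays limits the precision. Alternatives changed the arrays in the fit, the replicate block, the animal series, the spread model, the scaling, the filter on dim genes and the arrays left out.

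Genes named are the 15 largest calls in each direction, all clock genes, up to 3 called members per direction of each other list or the member of smallest p, and the 8 of smallest p per direction of the SOL against TA test. The 31 lists, 10 of them cell type markers, were written from general knowledge. The comparison, its members and the lists were chosen with earlier results of these data known.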

Additional observations from a re-analysis of the deposited data

Results flagged for a closer look

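The knockout difference at ZT4 was unlike in SOL and TA for the following genes, by the test within animals described in the report (limma, adjusted p under 0.05). Values are the SOL difference minus the TA difference on the log2 scale.

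Values were positive for Mettl21c, a methyltransferase of muscle (1.85), Car3 (1.65), Npr3, a clearance receptor of natriuretic peptides (1.46), Aebp1 (1.35), Slc2a3, a glucose transporter (1.30), Mical2, an enzyme that oxidises actin (1.21), Nkain1 (1.14) and Sorbs3 (1.05). Each of these 8 was called in all 6 fits without 1 array. Mettl21c read 10.26, 10.67 and 10.65 in mKO and 10.19, 9.97 and 10.17 in Ctrl in SOL, with the mKO arrays higher, and 8.68, 8.83 and 8.60 in mKO and 10.02, 10.25 and 10.12 in Ctrl in TA, with the mKO arrays lower. The difference was uncalled in SOL (0.42, adjusted p 0.717) and called in TA (-1.43, adjusted p 5.13e-07).

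Values were negative for Prss55 (-2.47), Actc1, cardiac actin (-1.55), Cmbl (-1.07), Tmem234 (-0.98), Peg3, an imprinted gene (-0.97), Ttll7 (-0.96), Cpne2 (-0.91) and Kcnma1, the BK potassium channel (-0.66). Of these, Prss55, Tmem234 and Ttll7 were called in all 6 fits without 1 array, Peg3 and Cmbl in 3, Actc1 and Kcnma1 in 2 and Cpne2 in 1. Actc1 read 10.55, 10.81 and 10.70 in mKO and 10.27, 10.34 and 10.35 in Ctrl in SOL, and 12.70, 12.64 and 12.33 in mKO and 10.58, 10.43 and 10.90 in Ctrl in TA. It was higher in mKO on every array of both muscles, by 0.37 in SOL and by 1.92 in TA. Groups of 3 arrays were not tested for single outlying animals.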

How the results depend on the processing

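The counts of 36 rises and 53 falls were within 1.5 times of these under 8 alternatives that kept every array, with only the animals of the number series that holds all 6 ZT4 animals (31 and 43), and without Ctrl A (34 and 47). With the spread from the 6 ZT4 arrays alone they were 11 and 20, and 25 of these 31 genes were among the 89. With array weights they were 93 and 118, which held all 89. Without single arrays they ran from 12 to 34 and from 19 to 47. Without the 2 Ctrl arrays high in liver transcripts, an alternative chosen after seeing the data, they were 3 and 10, and without the 2 Ctrl arrays low in Myh4, chosen likewise, 3 and 8; fewer samples enter these fits. The main fit did not pair samples by replicate letter. The deviations of same-lettered mKO and Ctrl arrays at ZT4 correlated at 0.24, -0.0018 and 0.062. Arrays of unlike letters were not compared, so these values cannot show whether the letters pair the samples. With the letter of each time as a block 30 genes rose and 45 fell, 67 of them shared with the 89. For ZT4 against the other times, no gene was called higher in any fit; 0 to 2 were called lower without single arrays and 1 without the liver-high arrays. For SOL against TA, the 13 higher genes became 20 among bright genes and 11 to 13 without single arrays, and the 10 lower genes 4 to 6. Without the liver-high arrays they were 5 and 3, and without the Myh4-low arrays 5 and 1. Cdkn1a, Mrln and Mylk4 were called in all 19 alternatives, no called difference changed sign among the 93 genes followed, and 8 uncalled genes passed in at least 1, such as Arntl with array weights (-0.50, adjusted p 0.0315). The median difference of all genes was 0.0097, and 0.0041 and 0.0078 under the 2 other scalings. The causes of these moves were not tested. With 3 arrays a group, the median SE of 0.11 bounds what could be seen.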
